A study of Homo sapiens with 6 samples.

Results

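The ZNF zinc finger genes that were well expressed in T47D-TR and T47D breast cancer cells are described here. They were chosen by symbol (ZNF, a number and at most 1 letter) and by level, as rows of the count table whose counts over the 6 libraries sum to at least 1000. Of 20503 rows, 425 had such a symbol and 205 of those reached the sum. The sums of the 205 genes ran from 1004 to 34618, with a median of 2324, and all 205 passed the filter on low counts. Because the choice used summed counts, the levels are given as a description. T47D-TR is a tamoxifen-resistant subline of T47D that was kept in medium with 1 µM 4-hydroxytamoxifen, a tamoxifen metabolite that binds the estrogen receptor, and T47D is the parental line, labelled as estrogen-receptor-positive. Both were grown in DMEM with 10% FBS (fetal bovine serum) and 1% penicillin/streptomycin, and poly(A) RNA was sequenced in 3 libraries of each. The subline and the drug changed together, so their parts in any difference cannot be told apart. The labels do not state whether libraries of 1 line stem from different cultures, so p-values measure the spread between these libraries, which may be technical.

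Most ZNF proteins carry tandem C2H2 zinc fingers, small folds held by a zinc ion, each of which reads a few bases of DNA. In many of them a KRAB box at the amino end recruits TRIM28, a scaffold that brings in the histone methyltransferase SETDB1, HP1 proteins and the NuRD complex, and the bound DNA, often a transposable element, is silenced. Others carry a SCAN domain, which pairs these proteins with each other, or no such domain, and act as promoter activators, co-repressor partners or RNA-binding proteins. The KRAB genes arose by repeated duplication and lie mostly in clusters, the largest of them on human chromosome 19.

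The name was checked against the translated coding sequences. Of the 202 genes with a coding transcript, 197 held at least 1 match to the C2H2 finger pattern, the number of fingers ran from 0 to 33, and the median was 9. The 5 without a match were ZNF703, ZNF503, ZNF185, ZNF839 and ZNF330. The other 3 genes, ZNF252P, ZNF271P and ZNF767P, are annotated as transcribed pseudogenes. A KRAB box was found in 96 genes, 7 of which also had a SCAN domain, a SCAN domain alone in 5, and no box in 101.

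Promoter sequence, which the choice did not use, was searched for short motifs. A 300-base window around the start site (250 bases before it and 50 after) was available from RefSeq (GRCh38.p14) for 175 of the 205 genes. The letters CCGGAAG, the core bound by ETS-family activators, stood on either strand in 72 of these windows (41.1%), against 21.2% of 7615 windows of other genes of like level and 10.3% of all 35116 windows in the table. The 4 windows printed next are from genes described further on. In T47D-TR, ZNF558 and ZNF277 were called higher, and ZNF92 and ZNF668 lower. Each is written 5′ to 3′ on the strand of the gene, with every CCGGAAG or its reverse complement CTTCCGG in capitals. ZNF558 is read from chr19:8832255-8832554 on the minus strand, with matches beginning 55 and 21 bases before the start site.
ZNF558: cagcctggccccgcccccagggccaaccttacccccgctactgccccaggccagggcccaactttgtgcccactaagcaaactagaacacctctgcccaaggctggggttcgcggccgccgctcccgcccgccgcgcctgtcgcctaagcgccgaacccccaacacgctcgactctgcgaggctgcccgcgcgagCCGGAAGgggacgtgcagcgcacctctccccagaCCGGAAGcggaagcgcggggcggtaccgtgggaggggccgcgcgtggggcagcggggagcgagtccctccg
ZNF277 is read from chr7:112206445-112206744 on the plus strand, with a match beginning 172 bases before the start site.
ZNF277: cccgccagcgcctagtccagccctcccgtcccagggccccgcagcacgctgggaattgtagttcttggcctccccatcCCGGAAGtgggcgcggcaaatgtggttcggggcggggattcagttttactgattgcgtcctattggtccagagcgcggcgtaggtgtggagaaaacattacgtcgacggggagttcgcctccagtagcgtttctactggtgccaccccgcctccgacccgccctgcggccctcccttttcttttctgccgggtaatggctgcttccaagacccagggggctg
ZNF92 is read from chr7:65373605-65373904 on the plus strand, with a match beginning 24 bases before the start site.
ZNF92: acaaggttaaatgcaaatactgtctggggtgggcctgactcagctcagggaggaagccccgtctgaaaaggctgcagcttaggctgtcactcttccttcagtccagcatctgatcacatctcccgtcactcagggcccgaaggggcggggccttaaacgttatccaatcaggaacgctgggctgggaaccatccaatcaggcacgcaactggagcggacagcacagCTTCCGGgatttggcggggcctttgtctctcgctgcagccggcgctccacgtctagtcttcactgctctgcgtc
ZNF668 is read from chr16:31074191-31074490 on the minus strand, with matches beginning 79 bases before and 7 bases after the start site.
ZNF668: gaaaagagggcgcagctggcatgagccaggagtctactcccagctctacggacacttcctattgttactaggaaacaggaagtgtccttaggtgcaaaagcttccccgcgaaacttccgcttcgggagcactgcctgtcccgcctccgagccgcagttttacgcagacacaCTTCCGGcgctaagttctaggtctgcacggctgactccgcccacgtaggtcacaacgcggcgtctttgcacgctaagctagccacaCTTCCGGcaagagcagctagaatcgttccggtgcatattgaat

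A rarer motif was the one named after a member. ZNF143 is an activator that binds a long promoter element, which was searched on both strands. Its letters stood in 3 of the 175 windows (1.71%), against 0.276% of windows of other genes of like level and 0.131% of all windows. The 3 stretches are printed on the strand of the gene with the match, which reads on the opposite strand, in capitals. They are ZNF697 at chr1:119648312-119648341, ZNF510 at chr9:96778120-96778149 and ZNF331 at chr19:53520824-53520853, with matches that begin 66, 53 and 181 bases before the start sites. The ZNF331 window holds a second match, which begins 72 bases before the start site and is not printed.
ZNF697: caaatcgagGCATGCTGGGAAcattctccc
ZNF510: taccgcgcaGCATGCTGGGAAcggatatgc
ZNF331: cgtagagttGCATGCTGGGAAatcctgaca
A match is a stretch of letters and not a measured binding site.

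The table held 17199315 to 19867230 counts in the T47D-TR libraries and 18315735 to 19305594 in the T47D libraries, and 3 counts corresponded to 0.153 to 0.178 CPM, the scale on which counts are divided by TMM-adjusted library sizes. T47D-TR replicate 3 was the least like its group: the chi-square per gene was 8.36 and 9.58 for the pairs that include it, 2.79 for replicates 1 and 2 of T47D-TR, and 1.83 to 2.24 for pairs of T47D libraries. Of the defining markers of the labelled cell type, ESR1, the estrogen receptor, had 2, 4 and 3 counts in the T47D-TR libraries and 3, 0 and 2 counts in the T47D libraries. These counts go against the estrogen-receptor-positive label in both lines, and the identity of the cultures was not tested. Of 8 luminal epithelial markers 7 were tested, with 5 higher and 2 lower in T47D-TR, and of 4 mesenchymal markers VIM and CD44 were higher, AXL was lower and CAV1 was not called. In T47D-TR and T47D, mean levels were 1580 and 1338 CPM for KRT8, 928 and 683 for KRT18, and 112 and 27.8 for KRT19. They were 14.7 and 38.6 CPM for EPCAM, 10.7 and 5.64 for FOXA1, 5.50 and 2.12 for CDH1, and 0.63 and 1.23 for GATA3. The mesenchymal markers stood at 1297 and 770 CPM (VIM), 721 and 488 (CD44), 304 and 319 (CAV1), and 117 and 195 (AXL). Of 8 immune and endothelial markers 6 were in the table, and their summed level was 80.3 to 103 CPM in T47D-TR and 23.2 to 27.0 CPM in T47D, most of it CD68 and PECAM1. The 7 fibroblast markers summed to 20.4 to 26.9 CPM in T47D-TR and 36.4 to 39.8 CPM in T47D. The part of these markers in the ZNF results was not tested.

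The first comparison asks how ZNF expression in the resistant subline differs from that in the parental line. Of the 205 genes, 70 were higher and 63 lower in T47D-TR, and 72 were not called (edgeR's quasi-likelihood test, Benjamini-Hochberg adjusted p under 0.05 over 15961 genes, 2-sided). The called share, 64.9%, stood beside 63.0% of all tested genes and 71.4% of the 9457 other genes of like level, those with sums of 1000 to 34618. For higher calls, 34.1% of the ZNF genes stood beside 32.5% of all genes and 34.4% of genes of like level, and for lower calls 30.7% stood beside 30.5% and 37.0%. The shares lay near the background of all tested genes. The genes of like level were more abundant, with a median of 43.1 CPM in T47D-TR against 20.8 CPM for the ZNF genes, and within ranges of the count sum the lower shares were nearer to each other. In bulk RNA a change in the share of cells that express a gene and a change in RNA per cell cannot be told apart.

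The size of the change was small. The log2 fold changes of the ZNF genes, T47D-TR over T47D, ran from -0.98 to 1.66 with a median of 0.02, against medians of 0.0019 over all tested genes and -0.02 over genes of like level. The median absolute log2 fold change was 0.26, against 0.36 over all tested genes and 0.30 over genes of like level. Called changes of at least 2-fold were found in 5 ZNF genes, all higher in T47D-TR (2.44%), against 14.0% of all tested genes and 7.36% of genes of like level. In 116 ZNF genes (56.6%) the absolute log2 fold change was under 0.3, against 42.7% and 49.7%. The 3 T47D-TR libraries lay wholly above or below the 3 T47D libraries in 135 ZNF genes (65.9%), against 68.3% of all tested genes and 75.9% of genes of like level. The balance of directions depended on the scaling: with quantile normalization and voom, which moved the median of all genes by -0.11, 52 ZNF genes were called higher and 80 lower.

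**Figure D1:**
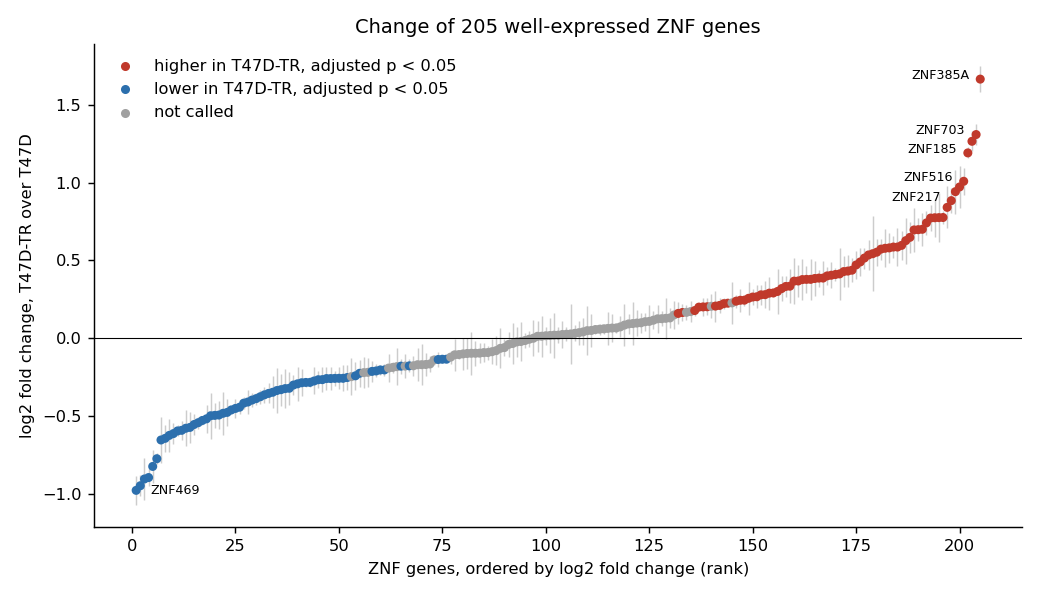
The 205 ZNF genes ordered by log2 fold change (vertical axis, T47D-TR over T47D; bars, SE from 3 libraries a group), with genes called higher in red, called lower in blue and not called in grey. Values run from -0.98 for ZNF469 to 1.66 for ZNF385A, and 5 genes pass a log2 fold change of 1.

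The ZNF genes took a like share of the reads in both lines. Their counts made up 0.663%, 0.671% and 0.650% of the T47D-TR libraries and 0.675%, 0.671% and 0.668% of the T47D libraries. The median level of a ZNF gene was 20.3, 21.0 and 20.4 CPM in T47D-TR and 20.4, 20.4 and 20.8 CPM in T47D, so the groups overlapped. The median coefficient of variation between libraries was 7.07% in T47D-TR and 4.95% in T47D, against 5.88% in T47D-TR and 3.81% in T47D for genes of like level, which held more counts. Among the 133 called ZNF genes, the T47D-TR library nearest to the T47D mean was replicate 1 in 38, replicate 2 in 43 and replicate 3 in 52.

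The called share was larger at higher count sums in both sets. At sums of 1000 to 2000, 58.9% of 90 ZNF genes were called, against 64.2% of 1753 other genes. At 2000 to 4000 it was 64.5% of 62 ZNF genes against 68.7% of 2286 other genes, and at 4000 to 8000 it was 70.3% of 37 against 72.8% of 2549. Above 8000, 14 of 16 ZNF genes were called (87.5%), 6 higher and 8 lower, against 76.8% of 2869 other genes. In the lowest range 33.3% of ZNF genes were higher, against 39.0% of other genes. The lower share of ZNF genes, from the lowest range to the highest, was 25.6%, 30.6%, 35.1% and 50%, against 25.3%, 33.5%, 38.8% and 45.4% of other genes.

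**Figure D2:**
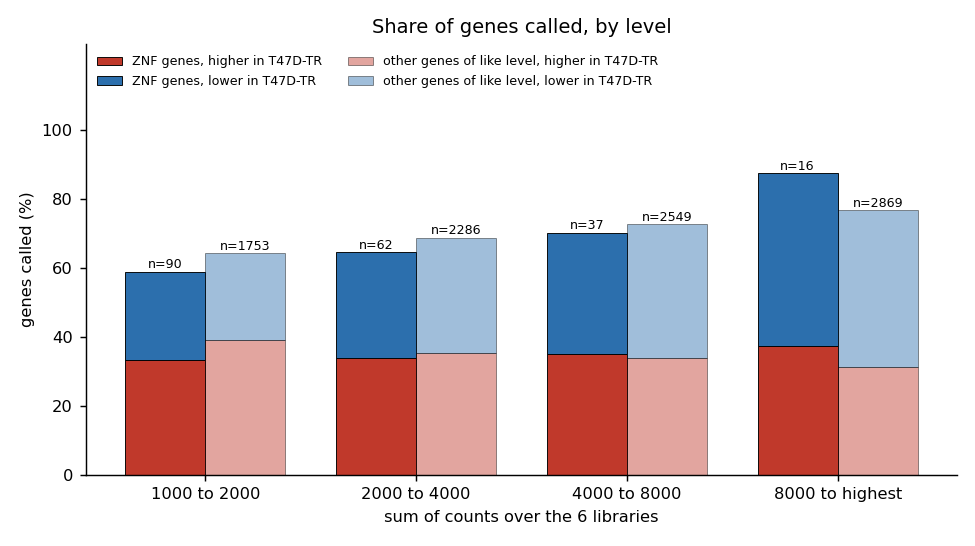
Share of genes called higher (red) and lower (blue) in T47D-TR, in percent, for ZNF genes (full colour) and other genes of like level (pale), in 4 ranges of the count sum over the 6 libraries (horizontal axis). The called share of ZNF genes goes from 58.9% in the lowest range to 87.5% in the highest.

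Of the 5 genes with a change of at least 2-fold, none has a KRAB or SCAN domain by the pattern, ZNF385A has 3 C2H2 fingers, ZNF516 has 10 and the other 3 have no match to the finger pattern. ZNF385A, an RNA-binding protein, had the largest rise. It stood at 80.5, 83.3 and 96.3 CPM in the T47D-TR libraries and at 28.4, 26.8 and 26.7 CPM in the T47D libraries. The T47D libraries lay close together and far below every T47D-TR library, and the fold was 3.17 (log2 1.66 ± 0.08 SE, edgeR adjusted p = 1.77e-09). The gene lies on chromosome 12 at 54369136 to 54391298 (GRCh38.p14).

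ZNF703 and ZNF503 form a small family of co-repressors that act in development, and ZNF703 lies in a region of chromosome 8 that is amplified in luminal breast tumours. ZNF703 stood at 25.5, 28.1 and 24.5 CPM in T47D-TR and at 10.8, 10.7 and 10.1 CPM in T47D (log2 1.31 ± 0.07 SE, edgeR adjusted p = 5.51e-08). ZNF503 stood at 32.2, 32.4 and 31.4 CPM in T47D-TR and at 13.7, 14.1 and 12.2 CPM in T47D (log2 1.27 ± 0.07 SE, edgeR adjusted p = 2.97e-08). The groups were far apart for both family members. ZNF503 overlaps the antisense gene ZNF503-AS2, and with the strand setting of the counting unknown, their reads may have been counted together.

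ZNF185 is a LIM-domain protein of the actin cytoskeleton that bears the ZNF name without a C2H2 finger. It stood at 38.2, 36.2 and 38.7 CPM in T47D-TR and at 16.4, 16.9 and 16.2 CPM in T47D (log2 1.19 ± 0.04 SE, edgeR adjusted p = 1.63e-08). ZNF516, a partner of co-repressor complexes with a role in brown fat in mice, stood at 27.8, 26.5 and 29.5 CPM in T47D-TR and at 14.2, 14.9 and 12.5 CPM in T47D (log2 1.01 ± 0.09 SE, edgeR adjusted p = 5.37e-07). In neither gene did a T47D library reach the lowest T47D-TR library.

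The next rises were spread over roles. ZNF558, a KRAB gene whose promoter with 2 CCGGAAG matches is printed above, stood at 17.4, 18.7 and 14.9 CPM in T47D-TR and at 7.54, 9.46 and 9.06 CPM in T47D (log2 0.97 ± 0.14 SE, edgeR adjusted p = 1.14e-05). ZNF488, a neural developmental regulator, stood at 17.7, 15.4 and 19.96 CPM in T47D-TR and at 9.64, 9.87 and 8.04 CPM in T47D. ZNF217, a co-repressor partner and oncogene amplified in breast cancer, stood at 106, 116 and 96.6 CPM in T47D-TR and at 58.6, 57.1 and 57.0 CPM in T47D (log2 0.88 ± 0.08 SE, edgeR adjusted p = 1.64e-07). Its lowest T47D-TR library, replicate 3, still lay well above every T47D library. ZNF251, a KRAB gene, had a log2 fold change of 0.84, and ZNF277, which binds a ribosomal protein, stood at 23.2, 23.05 and 23.9 CPM in T47D-TR and at 13.03, 14.4 and 13.6 CPM in T47D.

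On the other side no gene was lower by 2-fold in the fit reported here. The counts at 2-fold, 5 higher and 0 lower, were 4 and 3 with voom (ZNF469, ZNF574 and ZNF783 lower), 4 and 1 with library size alone or without T47D replicate 3, and 6 and 1 without T47D replicate 2 or T47D-TR replicate 2. Without T47D-TR replicate 1 they were 5 and 1. ZNF469, a very large protein linked to corneal collagen, came nearest, with 11.2, 12.1 and 10.4 CPM in T47D-TR and 24.2, 21.5 and 20.8 CPM in T47D (log2 -0.98 ± 0.09 SE, edgeR adjusted p = 1.67e-06). ZNF618, a chromatin protein that works with UHRF2, stood at 32.0, 27.6 and 30.9 CPM in T47D-TR and at 60.1, 57.8 and 56.4 CPM in T47D (log2 -0.95 ± 0.07 SE, edgeR adjusted p = 1.07e-07). In both, every T47D-TR library lay far below every T47D library. ZNF783, a KRAB-type gene of a chromosome 7 cluster, had a log2 fold change of -0.90, ZNF574 -0.89, ZNF689 -0.82 and ZNF74 -0.77. ZNF74 was the most even of these, with 8.71, 9.13 and 9.42 CPM in T47D-TR and 15.7, 15.4 and 15.4 CPM in T47D. ZNF556, ZNF428, ZNF696 and ZNF440 closed the list at log2 fold changes of -0.65, -0.64, -0.62 and -0.61.

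**Figure D3:**
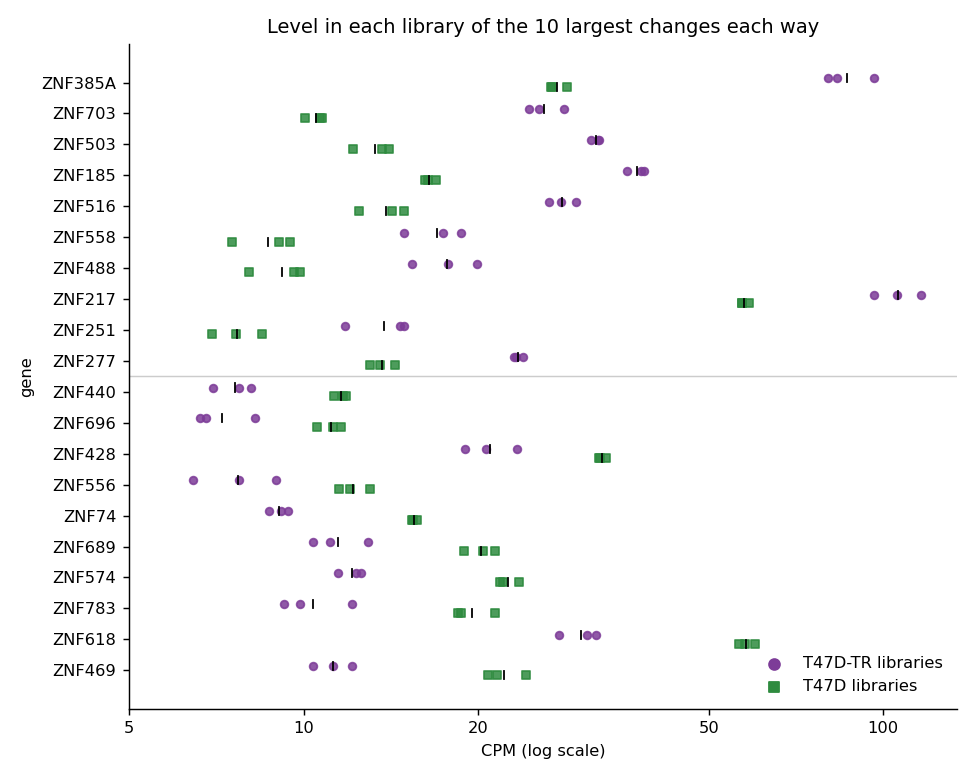
Level in each library (horizontal axis, CPM on a log scale) of the 10 ZNF genes with the largest rise (upper part) and the 10 with the largest fall (lower part), with T47D-TR libraries as circles, T47D libraries as squares and group means as bars. By the rule of choice the groups do not overlap in any of the 20, and ZNF385A, at 80.5 to 96.3 CPM in T47D-TR, is the farthest apart.

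None of the ZNF genes with the most reads reached a 2-fold change. The median absolute log2 fold change was 0.26 in the 16 genes with sums above 8000, as over all 205. ZNF207, a spindle assembly protein, had the highest level per length of all 205 genes, at 136 CPM per kb in T47D-TR and 187 CPM per kb in T47D. It stood at 262, 263 and 249.95 CPM in T47D-TR and at 355, 356 and 356 CPM in T47D, and it fell by 0.46 on the log2 scale (SE 0.02, edgeR adjusted p = 6.67e-07), though 20.7% of its 50-base stretches also occur in another gene. ZNF664 stood at 243 ± 8.23 CPM in T47D-TR and 296 ± 2.15 CPM in T47D (SD, n = 3 each; log2 -0.28, edgeR adjusted p = 6.34e-05). ZNF638, which takes part in splicing and in silencing of retroviral DNA, stood at 164 ± 2.76 CPM in T47D-TR and 139.98 ± 3.82 CPM in T47D (SD, n = 3 each; log2 0.23). ZNF146, almost all fingers, stood at 179 ± 3.12 CPM in T47D-TR and 196 ± 5.36 CPM in T47D, and its fall of 0.13 on the log2 scale (edgeR adjusted p = 0.015) was no longer called without T47D replicate 3 (edgeR adjusted p = 0.0674), without T47D-TR replicate 1 (edgeR adjusted p = 0.0536) or with voom.

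ZNF106 shows how much 1 library can weigh. It stood at 154, 148 and 126 CPM in T47D-TR and at 132, 131 and 130.05 CPM in T47D, so that replicate 3 of T47D-TR lay under the T47D libraries and the other 2 above them. The difference was not called (log2 0.13, edgeR adjusted p = 0.112), and without T47D-TR replicate 3 it was (log2 0.21, edgeR adjusted p = 4.82e-05).

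Members with roles in development come next. Of 10 such genes listed, 5 were well expressed and all 5 were higher in T47D-TR, against 32.5% of all tested genes and 34.4% of genes of like level, and their median log2 fold change was 0.77. Beside ZNF703 and ZNF503 these were ZNF292, ZNF609 and ZNF462. ZNF292, a large DNA-binding protein, stood at 69.6, 71.4 and 55.4 CPM in T47D-TR and at 38.5, 39.6 and 36.8 CPM in T47D (log2 0.77 ± 0.12 SE, edgeR adjusted p = 6.5e-06). ZNF609, which acts in muscle precursor growth, stood at 131 ± 8.89 CPM in T47D-TR and 101.2 ± 7.84 CPM in T47D (SD, n = 3 each), and ZNF462 had a log2 fold change of 0.27. The list was chosen with results of these data known, so its direction is a description.

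Of 9 genes listed as linked to tumours 6 were well expressed, with 5 higher and 1 lower in T47D-TR. Over all tested genes 32.5% were higher and 30.5% lower, and over genes of like level 34.4% and 37.0%. ZNF703 and ZNF503 also stand in the developmental list, ZNF217 among the co-repressor partners and ZNF281 among the promoter-binding activators. The tumour list too was chosen with results of these data known. ZNF395, a hypoxia-responsive factor, stood at 52.5, 55.4 and 43.5 CPM in T47D-TR and at 30.2, 31.4 and 31.7 CPM in T47D (log2 0.70), and 41.7% of its 50-base stretches are shared with FBXO16, so its counts are uncertain. ZNF281, a regulator of pluripotency and of the epithelial to mesenchymal transition, stood at 57.8 ± 3.22 CPM in T47D-TR and 47.6 ± 2.57 CPM in T47D (SD, n = 3 each; log2 0.28). The gene that went the other way was ZNF652, a repressor described as a tumour suppressor partner in breast, with 27.3, 26.3 and 29.02 CPM in T47D-TR and 41.6, 43.6 and 39.1 CPM in T47D (log2 -0.59 ± 0.06 SE, edgeR adjusted p = 8.32e-06).

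Among partners of chromatin and co-repressor complexes, 16 of 18 listed genes were well expressed. Of these 7 were higher, 4 lower and 5 not called, beside 32.5% higher and 30.5% lower of all tested genes. Those higher beside ZNF516 and ZNF217 were ZNF687 (log2 0.44), ZNF24, ZNF827, ZNF462 and ZNF410, the last of which, an activator of the NuRD subunit gene CHD4, shares 83.5% of its 50-base stretches with other genes. ZNF687 and ZNF592 are subunits of 1 complex and were called in opposite directions: ZNF687 stood at 35.0, 34.7 and 37.5 CPM in T47D-TR and at 26.4, 28.5 and 24.3 CPM in T47D, while ZNF592 stood at 45.9, 45.9 and 39.9 CPM in T47D-TR and at 53.9, 51.6 and 52.0 CPM in T47D (log2 -0.26). The third subunit, ZNF532, was not called (log2 0.04). ZNF644 and ZNF518A, both partners of the G9a and GLP histone methyltransferases, were lower by log2 -0.26 and -0.59. ZNF518A stood at 30.8, 32.6 and 30.1 CPM in T47D-TR and at 46.4, 47.2 and 47.7 CPM in T47D (edgeR adjusted p = 2.29e-06). ZNF445, which guards imprinted genes together with TRIM28, was lower by log2 -0.35.

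All 9 genes listed for ribosome and RNA roles were well expressed, with 3 higher, 5 lower and 1 not called (all tested genes: 32.5% higher, 30.5% lower). The higher ones were ZNF385A, ZNF277 and ZNF638. Among the lower ones were ZNF598, a ubiquitin ligase of collided ribosomes, at 65.0 ± 1.91 CPM in T47D-TR and 74.8 ± 2.95 CPM in T47D (log2 -0.20), and ZNF622, a large-subunit assembly factor, at 76.4 ± 3.29 CPM in T47D-TR and 88.3 ± 2.33 CPM in T47D (log2 -0.21, SD, n = 3 each). ZNF326, which couples transcript elongation to splicing, stood at 63.2, 63.9 and 53.9 CPM in T47D-TR and at 85.0, 85.4 and 85.0 CPM in T47D (log2 -0.49 ± 0.08 SE, edgeR adjusted p = 2.31e-05). Without T47D replicate 2 the count of lower genes in this list was 3 in place of 5.

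Some ZNF genes have other roles or other zinc folds. Of 6 listed, all well expressed, 2 were higher and 4 lower (all tested genes: 32.5% higher, 30.5% lower), with ZNF598 and ZNF622 counted again. ZNF451, a SUMO ligase, stood at 68.5, 70.2 and 59.7 CPM in T47D-TR and at 40.3, 39.9 and 38.6 CPM in T47D (log2 0.74), and ZNF330, a nucleolar protein, was lower by log2 -0.40.

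Promoter-binding activators showed small differences. Of 9 listed 8 were well expressed, with 2 higher, 4 lower and 2 not called (all tested genes: 32.5% higher, 30.5% lower). ZNF639 and ZNF131 were lower by log2 -0.27 and -0.26, and ZNF384 by -0.13, with 96.5, 95.4 and 96.3 CPM in T47D-TR and 105, 106 and 105 CPM in T47D. ZNF143 itself was not called, at 31.9 ± 1.68 CPM in T47D-TR and 31.1 ± 2.36 CPM in T47D (SD, n = 3 each; log2 0.04, edgeR adjusted p = 0.687). Of the 3 genes whose promoters hold its motif, ZNF697 (log2 0.70, edgeR adjusted p = 0.000257) and ZNF510 (log2 0.26, edgeR adjusted p = 0.0421) were higher and ZNF331 was not called (log2 0.07, edgeR adjusted p = 0.52). ZNF148, a binder of G-rich promoters at log2 0.16, lost its call when any of the 3 T47D libraries or T47D-TR replicate 1 or 2 was left out, and without T47D replicate 2 the list held 1 higher and 2 lower genes.

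The KRAB genes were counted beside those without a box. Of the 96 with a KRAB box, 34 were higher (35.4%, against 32.5% of all tested genes), 22 lower (22.9%, against 30.5%) and 40 not called (median log2 0.03), while of the 101 genes with no box 33 were higher, 38 lower and 30 not called (median log2 0.02). With library size alone the KRAB genes split into 28 higher and 28 lower, and with voom into 21 higher and 35 lower. Sums above 8000 were held by 0 of the 96 KRAB genes and 15 of the 101 genes with no box. At sums of 1000 to 2000, 39.0% of other genes of like level were higher and 25.3% lower. These shares were 35.3% and 33.5% at 2000 to 4000, and 33.9% and 38.8% at 4000 to 8000. Whether the classes differed was not tested. Among 15 listed KRAB repressors with known targets 6 were well expressed. ZNF91, which represses SVA and LINE-1 elements, stood at 18.8, 16.3 and 19.2 CPM in T47D-TR and at 14.0, 15.04 and 12.4 CPM in T47D (log2 0.39 ± 0.11 SE, edgeR adjusted p = 0.00417), and ZNF268, ZNF33A and ZNF224 were higher as well. ZNF224, a repressor of a glycolytic enzyme gene, had overlapping groups and lost its call in 3 of 12 other settings. Among them were the fits without T47D replicate 1 (edgeR adjusted p = 0.0667) and without T47D replicate 2 (edgeR adjusted p = 0.0709). ZNF587, which acts on endogenous retroviruses, was lower (log2 -0.20), with 20.2% of its 50-base stretches found in another gene, and with voom this list had 2 higher and 2 lower genes. Among the 12 genes with a SCAN domain, with or without a KRAB box, 2 were higher, 5 lower and 5 not called, the ends being ZNF24 (log2 0.29) and ZNF174 (log2 -0.48). The SCAN counts were small and moved with single libraries: leaving out any 1 library other than T47D-TR replicate 2 left 1 higher, and leaving out T47D replicate 1 or T47D-TR replicate 1 or 2 left 3 lower.

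The number of fingers was compared next. Of 34 genes with 16 or more fingers 17 were higher (50%, against 32.5% of all tested genes) and 5 lower (median log2 0.19). All 34 had sums up to 8000. At sums of 1000 to 2000, 2000 to 4000 and 4000 to 8000, 39.0%, 35.3% and 33.9% of other genes of like level were higher. The lower shares there were 25.3%, 33.5% and 38.8%. Of 46 with 11 to 15 fingers 13 were higher and 12 lower, of 62 with 7 to 10 fingers 18 were higher and 22 lower, and of 31 with 4 to 6 fingers 7 were higher and 12 lower (median log2 -0.14). The shortest arrays did not continue this order, since of 24 with 1 to 3 fingers 10 were higher and 10 lower, and of the 5 with no match 3 were higher and 1 lower. ZNF184 and ZNF41, both KRAB genes, led the long arrays at log2 0.78 and 0.77, and ZNF574 was the lowest at -0.89. Without T47D replicate 2 the long arrays had 11 higher genes, and with voom 9 higher and 7 lower. Transcript length was looked at as well. Across the 205 genes Spearman's rho of log2 fold change was 0.219 with transcript length and 0.131 across the 202 coding genes with the number of fingers, and across 8888 other genes of like level it was 0.137 with length. Genes are not independent samples, they share libraries, and the part of length in the finger counts was not tested.

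Position on the chromosomes was examined next, since neighbours in a ZNF cluster often share an origin by duplication. Chromosome 19 held 62 of the 205 genes, with 18 higher and 17 lower, and with voom 11 higher and 24 lower. Of 516 other genes of like level there, 139 were higher and 247 lower. The 143 ZNF genes elsewhere split into 52 higher and 46 lower. On chromosome 18, 5 of 7 ZNF genes were higher and 0 lower, and of 139 other genes of like level there 106 were higher and 11 lower. The 5 were ZNF516, ZNF519, ZNF236, ZNF271P and ZNF24. On chromosome 16, 8 of 17 ZNF genes were lower and 2 higher, and of 417 other genes of like level 233 were lower and 87 higher. Chromosome 16 carries ZNF469, ZNF689, ZNF174, ZNF598 and ZNF668, whose promoter is printed above and which stood at 11.5, 11.7 and 10.2 CPM in T47D-TR and at 18.8, 14.8 and 16.4 CPM in T47D (log2 -0.58). The 2 higher genes there, ZNF597 and ZNF48, became 1 without T47D replicate 2 or T47D replicate 3.

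Clusters were defined as runs of at least 4 ZNF-named genes, each starting within 250 kb of the one before it. Of the 205 genes 90 lay in a cluster, 27 higher, 29 lower and 34 not called, and 115 lay in none, 43 higher, 34 lower and 38 not called. Over all tested genes 32.5% were higher and 30.5% lower, and over genes of like level 34.4% and 37.0%. The cluster of chromosome 7 at 149069641 to 149867479 (GRCh38.p14) held 7 well-expressed ZNF genes, and 6 of them were lower in T47D-TR and 0 higher, with a median log2 fold change of -0.35. Of 4 tested ZNF genes there under the sum threshold 1 was higher and 0 lower, and of 3 other tested genes 1 was higher and 1 lower. On the whole of chromosome 7, 143 of 437 other genes of like level were higher and 177 lower. ZNF783 moved most, with 12.1, 9.84 and 9.24 CPM in T47D-TR and 21.4, 18.5 and 18.7 CPM in T47D (log2 -0.90 ± 0.14 SE, edgeR adjusted p = 1.47e-05). ZNF746, which encodes the PARIS repressor, stood at 17.3, 19.2 and 16.995 CPM in T47D-TR and at 27.1, 25.2 and 22.99 CPM in T47D (log2 -0.49). ZNF777, ZNF767P and ZNF398 followed at -0.36, -0.35 and -0.28. ZNF282 was called at the edge of the threshold (log2 -0.14, edgeR adjusted p = 0.0496) and lost the call in 9 of 12 other settings, among them the removal of any 1 of the 6 libraries, while ZNF212 was not called (log2 -0.22, edgeR adjusted p = 0.0702). In all 7 genes the 3 T47D-TR libraries lay below the 3 T47D libraries. Groups that did not overlap, in either direction, were found in 68.3% of all tested genes and 75.9% of genes of like level. ZNF92, elsewhere on chromosome 7 and printed above, was lower as well, at 11.04, 9.33 and 10.8 CPM in T47D-TR and 16.5, 14.1 and 15.8 CPM in T47D (log2 -0.57).

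A cluster of chromosome 19 at 9140397 to 9786160 went the other way. Of its 6 well-expressed ZNF genes 4 were higher and 0 lower, with a median log2 fold change of 0.32. Of 3 tested ZNF genes there under the sum threshold 2 were higher and 0 lower, and the 1 other tested gene was higher. On the whole of chromosome 19, 139 of 516 other genes of like level were higher and 247 lower. ZNF561 stood at 33.3, 40.5 and 34.5 CPM in T47D-TR and at 24.8, 24.2 and 24.9 CPM in T47D (log2 0.55 ± 0.09 SE, edgeR adjusted p = 5.97e-05). ZNF266 and ZNF426 were both at log2 0.43, and ZNF562, whose groups overlapped, at 0.21, while ZNF317 and ZNF121 were not called (0.07 and 0.05). On chromosome 10 at 37758538 to 38150293, 3 of 3 were higher: ZNF248 (log2 0.59), ZNF33A (0.27) and ZNF37A (0.24). Of 371 other genes of like level on that chromosome, 152 were higher and 130 lower. At the end of chromosome 19, at 57191500 to 58489533, 0 of 9 were higher and 3 lower, with ZNF544 the lowest at -0.38 and ZNF264 the highest at 0.03, and with voom 5 were lower. The ZNF genes of that cluster under the sum threshold did not share this direction, since of 26 tested 8 were higher and 1 lower. The remaining clusters with at least 4 well-expressed genes were mixed. In that of chromosome 19 at 51571283 to 53580269, for example, 4 of 12 were higher, up to 0.63 for ZNF160, and 3 lower, down to -0.39 for ZNF614. That at 55476617 to 55645623 had 0 of 4 called by edgeR, the values running from -0.10 for ZNF579 to 0.07 for ZNF865. No test was made over clusters, and those described singly were picked after their values were seen.

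**Figure D4:**
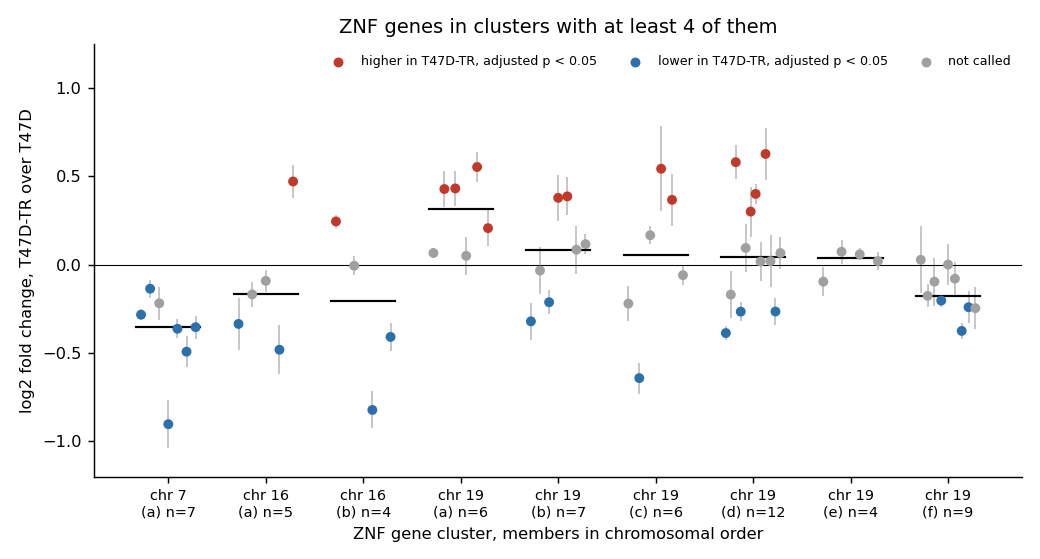
Log2 fold change (vertical axis, T47D-TR over T47D; bars, SE from 3 libraries a group) of the ZNF genes in the 9 clusters that hold at least 4 of them, in chromosomal order within each cluster, with the median as a line. The chromosome 7 cluster lies below 0 in all 7 genes (median -0.35), and the first chromosome 19 cluster above 0 in all 6 (median 0.32).

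The genes through which KRAB proteins act were also counted. Of 34 genes of KRAB repression (TRIM28, SETDB1, HP1, NuRD, HUSH and related factors), all of them tested, 4 were higher in T47D-TR, 18 lower and 12 not called, and the median of their log2 fold changes was -0.16. The lower share, 52.9%, stood beside 30.5% of all tested genes and, since 27 of the 34 had sums above 8000, 45.4% of the genes of like level in that range. TRIM28, the scaffold that KRAB boxes bind, stood at 231, 211 and 243 CPM in T47D-TR and at 441, 439 and 435 CPM in T47D. Each T47D-TR library was far below each T47D library, the fall was 0.94 on the log2 scale (SE 0.06, edgeR adjusted p = 9.78e-09), and it lay between -0.99 and -0.89 under the other settings. MBD3, a NuRD subunit, was at 48.5 ± 1.36 CPM in T47D-TR and 82.0 ± 3.10 CPM in T47D (SD, n = 3 each; log2 -0.76, edgeR adjusted p = 1.04e-07), and CBX5, which encodes an HP1 protein, was lower by log2 -0.48. The histone methyltransferase gene SETDB1 was not called, at 43.0 ± 3.32 CPM in T47D-TR and 39.9 ± 2.65 CPM in T47D (SD, n = 3 each; log2 0.11, edgeR adjusted p = 0.212). The 4 higher genes were KIAA1551 (RESF1, a SETDB1 partner, log2 0.36), FAM208A (the HUSH subunit TASOR, 0.33), TRIM24 (0.28) and TRIM33 (0.22). With library size alone 4 were higher and 19 lower, and with voom 5 higher and 17 lower. The list was chosen with results of these data known.

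**Figure D5:**
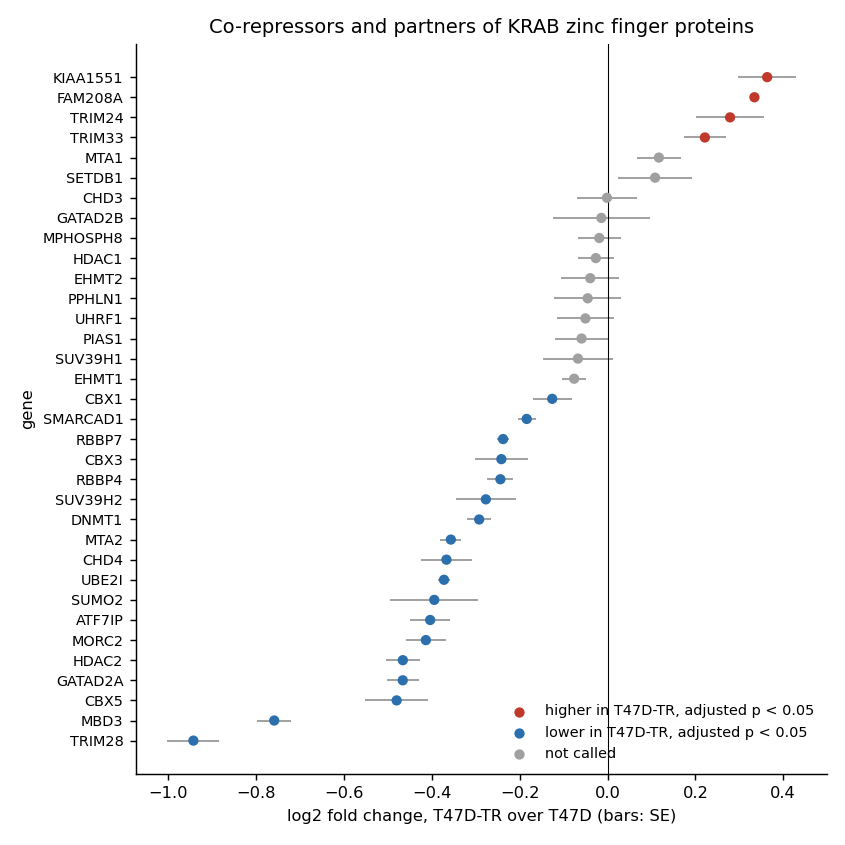
Log2 fold change (horizontal axis, T47D-TR over T47D; bars, SE from 3 libraries a group) of 34 genes of KRAB repression, with called genes in red (higher) and blue (lower) and genes not called in grey. TRIM28, at -0.94, and MBD3, at -0.76, are the lowest.

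The promoter motifs were also counted by direction. CCGGAAG stood in 24 of 57 windows of higher genes, 16 of 53 of lower genes and 32 of 65 of genes not called. GGGCGG, the SP1 box, stood in 114 of 175 windows (65.1%), against 72.3% for genes of like level and 45.0% of all windows, and in 39 of 57 windows of higher genes and 33 of 53 of lower genes. The NRF1 motif stood in 13.1% of ZNF windows against 13.4% for genes of like level, TGACGTCA (CREB and ATF) in 6.29% against 3.62%, CACGTG (E-box) in 7.43% against 10.9% and AAGATGGC (YY1) in 5.71% against 6.29%. Each was searched on both strands, none contains another, and a window was counted once however many matches it held. No test was made over these counts.

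Sequence shared with other genes limits the count of some members. Of the 205 genes 159 shared under 5% of their 50-base stretches with other genes, with a median of 0.14%, and 4 shared over 50%: ZNF320, ZNF23, ZNF410 and ZNF286A. An exon of a gene on the opposite strand overlapped 69 genes and one on the same strand 48. Among genes described here, ZNF217, ZNF558, ZNF292, ZNF451, ZNF248, ZNF519, ZNF561, ZNF664, ZNF146, ZNF518A, ZNF668, ZNF687, ZNF462, ZNF598 and ZNF184 have such a partner on the opposite strand. Their counts are uncertain to that extent, and the list is not complete. In the 94 genes with under 5% shared stretches and no exon overlap, 28 were higher and 36 lower in T47D-TR.

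At the edge of the choice, the genes just inside were ZNF181, ZNF519, ZNF224, ZNF354B and ZNF23, with sums of 1004, 1006, 1032, 1034 and 1036. Those just outside were ZNF57, ZNF566, ZNF550, ZNF587B and ZNF765, with sums of 996, 982, 975, 965 and 960. Their log2 fold changes reached 0.59 in ZNF519 inside and 0.79 in ZNF550 outside. Below the threshold lay 220 ZNF rows, of which 194 were tested, with 50 higher (25.8%), 24 lower (12.4%) and a median log2 fold change of 0.17. Over all tested genes 32.5% were higher and 30.5% lower.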

How the data were processed

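RNA of 3 T47D-TR and 3 T47D libraries was measured by RNA-seq, and libraries were assigned to groups by title. The submitters' processing notes name HISAT2 2.1.0, the GRCh38 build and DESeq. How reads were counted, on which strand and over which gene models, is nowhere given in the sources used here. The table deposited by the authors holds whole-number counts for each gene in each library, under a file label of FPKM. Beside them the authors deposited group means as a normalized signal, a linear fold ratio, a log2 fold change, and a p-value with a false discovery rate. In the authors' deposited table, of the 205 genes, 59 were higher and 54 lower at a false discovery rate under 0.05, and all 113 were called in the same direction here.

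Counts were tested with edgeR 4.0.16 (TMM, filterByExpr with a minimum count of 10 and total of 15, quasi-likelihood test, R 4.3.3) on all 6 libraries, and p-values were adjusted by Benjamini-Hochberg over 15961 genes at a threshold of 0.05. CPM use TMM-scaled library sizes, and SE come from log2 CPM computed with a prior of 2 counts. The written plan allowed for counts or FPKM. The members, gene lists and tests were chosen with earlier results of these data known. The named genes were the 10 highest and 10 lowest called members with groups that do not overlap, the 6 with the highest CPM, the 5 nearest the sum threshold on each side, up to 2 called at each end of each role list and class, the ends of each cluster with at least 4 members, up to 3 called co-repressor genes at each end, TRIM28 and SETDB1. Others named (other members of the role and chromosome lists, of the clusters of chromosomes 7, 10 and 19 and of the motif counts, and ZNF41, ZNF184 and ZNF292) were chosen after their values were seen.

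Positions and promoter windows come from RefSeq (GRCh38.p14), which placed all 205 genes. The plan assumed RefSeq proteins for the domain classes, and translated GENCODE v29 coding sequences were used in their place. A KRAB box needed 6 of 9 fixed letters and a SCAN domain 9 of 16. Shared sequence is the percentage of 50-base stretches of a gene's transcript with the longest coding sequence that occur in any transcript of another gene. The gene's other transcripts were not searched. On simulated data the test missed part of the smallest changes put in, and some of its calls were false. Alternatives were DESeq2, other scalings, no filter, a replicate block, leaving out each library, and other sums. Some results are not reported here.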

Additional observations from a re-analysis of the deposited data

How the results depend on the processing

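The count of genes called, 10053, moved by less than 1.5 times under every setting run, the lowest being 9047 and the highest 10665 when 1 library was left out. Among the 205 ZNF genes, leaving out 1 library gave 55 to 71 higher, 53 to 64 lower and a median log2 fold change of -0.0011 to 0.0345. DESeq2 called 58 higher and 54 lower. The median, 0.02 as reported, was -0.0165 with library size alone (61 higher, 74 lower) and -0.11 with voom after quantile normalization. A lower limit of 500 on the sum gave a median of 0.0476, and a limit of 2000 gave 40 higher and 40 lower genes. In the 94 genes with under 5% shared sequence and no exon overlap, a setting chosen after seeing the data, there were 28 higher and 36 lower with a median of -0.0018. For this last and the sum limits fewer genes were counted by construction; for the scalings the cause was not tested. Of the 133 called ZNF genes, 112 kept call and direction with DESeq2, 114 with voom, 124 with library size alone and 107 to 124 with 1 library left out, and 0 changed sign.

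The replicate numbers showed no sign of pairing, since deviations of same-numbered libraries correlated at -0.0051, -0.021 and -0.014. Whether same-numbered libraries were prepared together cannot be told from this. With the numbers as a replicate block 9954 genes were called, 67 ZNF genes higher and 61 lower. Of 73 named genes 61 were called, 52 of them in all 12 settings run. The 9 that lost the call in at least 1 were ZNF101, ZNF146, ZNF148, ZNF197, ZNF224, ZNF282, ZNF394, ZNF48 and ZNF593, and none reversed. Fewer members were called at low sums, 58.9% at 1000 to 2000 counts against 87.5% above 8000, and the part of depth in this was not tested.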
